A study of Homo sapiens with 9 samples.

Results

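The enzymes that turn glucose into pyruvate, and pyruvate into lactate or acetyl-CoA, were followed in cells treated with FB23 or FB23-2. They were a fixed list of 33 genes, taken by symbol from the 26830 genes in the deposited tables: hexokinases and ADPGK, GPI, phosphofructokinases and their regulators, aldolases, the enzymes of the triose steps, enolases, PKM, lactate dehydrogenases, phosphoglucomutases and 4 genes of the pyruvate dehydrogenase complex. All 33 were found, and 29 had enough counts to be tested. Polyadenylated RNA was sequenced from cells labelled NB4, an established human line of acute promyelocytic leukaemia whose labels give the cell type as acute monocytic leukaemia. The 3 groups, of 3 libraries each, were harvested after 48 h: cells given the solvent DMSO alone, cells given FB23 and cells given FB23-2. Both compounds are labelled as inhibition of FTO, an RNA demethylase. No genetic change was labelled in any group. Doses are not in the labels, so FB23 and FB23-2 were compared at the same time only, and whether their doses matched is not known. The labels do not say whether replicates came from separate cultures, so p-values measure the spread between these libraries, which may be technical.

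Glycolysis splits glucose into a pair of pyruvate molecules with a net gain of ATP and NADH, and many of its steps are carried out by several isozymes encoded by separate genes. The isozymes differ in tissue, in affinity and in regulation, and muscle, brain, liver and red cells each use a typical set. Pyruvate is then either reduced to lactate by lactate dehydrogenase, which regenerates NAD+, or carried into mitochondria and oxidised by the pyruvate dehydrogenase complex, which pyruvate dehydrogenase kinases switch off. Leukaemia cells, like many dividing cells, commonly make lactate even where oxygen is present.

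Totals ran from 12360291 to 38410750 expected counts per library, with FB23 replicate 1 the lowest. The labelled cell type was checked against marker genes. The 5 promyelocyte granule genes MPO, ELANE, PRTN3, AZU1 and CTSG summed to 0.23 to 1.77 TPM (a level per transcript length) in the 9 libraries, and MPO and CTSG had 0 counts. By contrast, 11 red cell genes (globins, KLF1, GATA1, ALAS2 and EPOR) summed to 27637 to 29274 TPM in DMSO, 31589 to 33999 TPM under FB23 and 4097 to 4677 TPM under FB23-2. With FB23-2 all 10 tested red cell genes were lower, as were 41.3% of all tested genes. The near absence of granule genes beside abundant globins goes against the label of a promyelocytic or monocytic line. Of 4 epithelial genes, which summed to 675 to 683 TPM in DMSO and 2889 to 3081 TPM with FB23-2, KRT8, KRT18 and KRT19 rose by 2.35, 1.52 and 2.55 on the log2 scale with FB23-2 and EPCAM fell by 1.77. The 6 myeloid genes summed to a mean of 54.7 TPM in DMSO, mostly from CD33, and to 63.1 to 65.3 TPM with FB23-2, where CD33 and ITGAM were called lower (-0.23 and -0.54) and ANPEP, CSF3R and LYZ higher. ANPEP had enough counts to be tested only through the FB23-2 libraries, so its call is no independent support for a rise. The 5 lymphoid genes summed to 4.87 to 6.86 TPM in DMSO and 30.6 to 35.4 TPM with FB23-2. The part of these shifts in the results below was not tested, and in bulk RNA fewer cells of a type and less RNA per cell cannot be told apart.

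With FB23, 6 of the 29 tested members were higher than in DMSO and 9 were lower (edgeR, adjusted p under 0.05 over all genes), which is 51.7% of those tested, against 23.5% of all 13365 tested genes (12.3% higher and 11.2% lower). None of these changes reached 1 on the log2 scale, as 0.763% of all genes did upward and 0.397% downward, and the median over the tested members was -0.08, beside 0.00 over all genes. With FB23-2, 11 members were higher and 13 lower than in DMSO. That share of 82.8% was close to the 82.6% of all tested genes that were called (41.3% in each direction), so the number of changed members does not set them apart, and the size and direction of each change carry the description that follows. At least 1 on the log2 scale was reached by 6 members that were higher and 5 that were lower with FB23-2, against 20.7% and 16.1% of all genes. PGAM2, counted among those higher here and below, passed the count filter only through the FB23-2 libraries. Groups did not overlap in CPM for 19 members between FB23 and DMSO (37.9% of all genes), 23 between FB23-2 and DMSO (84.2%) and 23 between the compounds (81.2%). With FB23-2 against DMSO, medians were -0.01 over the members and 0.01 over all genes. Between the compounds, 14 members were higher and 10 lower with FB23-2 than with FB23, beside 40.4% and 41.1% of all genes. Members were more abundant than most genes, with a median of 7.30 in mean log2 CPM (counts scaled to library size with TMM factors) against 4.81 over all tested genes. The part of abundance in the 51.7% called with FB23 was not tested. The list was also chosen with earlier results of these data known, so that share is no independent support for a change of the pathway.

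**Figure D1:**
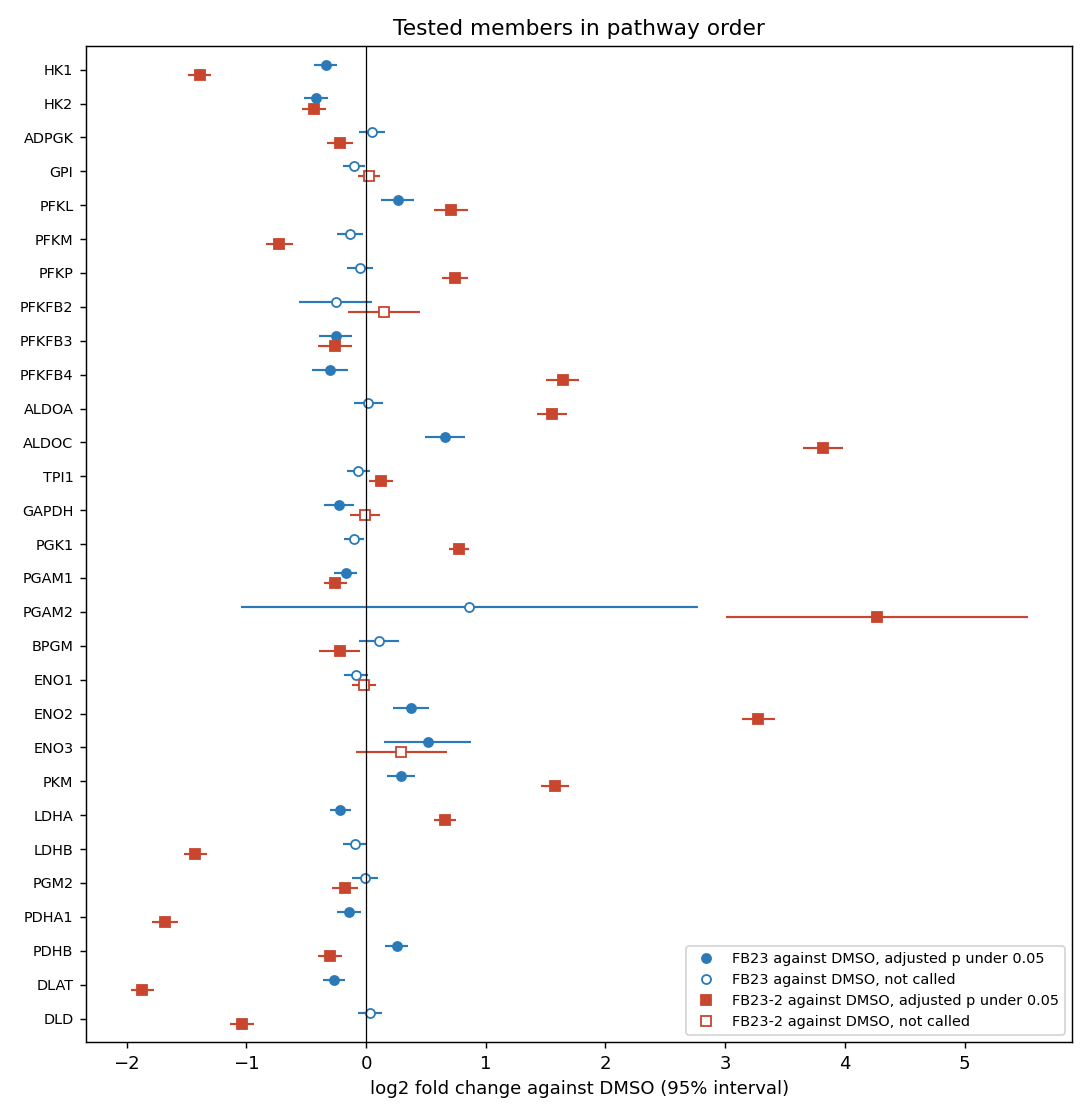
Log2 fold changes of the 29 tested members (horizontal axis, log2 units, with 95% intervals) for FB23 (blue circles) and FB23-2 (red squares) against DMSO in pathway order, filled where the adjusted p was under 0.05. ALDOC at 3.82, ENO2 at 3.28 and PGAM2 at 4.27 stand farthest to the right with FB23-2, and DLAT at -1.87 and PDHA1 at -1.68 farthest to the left, while points of FB23 lie between -0.42 and 0.86.

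Sizes depended on the scale. TPM rests on the library total and stood above the TMM scale with FB23-2, by 0.24 on the log2 scale at the median gene, and upper-quartile factors and library totals moved that median by 0.17 and 0.15. Changes between groups are therefore given in CPM, and TPM is used to set isozymes of 1 library beside each other. The 17 members with the largest called changes with FB23-2 against DMSO (all larger than the 0.30 of PDHB) were called in the same direction under all 21 alternative fits, which apply no minimum fold. Calls on 7 members with smaller changes did not all hold: ADPGK, PFKFB3, TPI1, PGAM1, BPGM, PGM2 and PDHB. Several members, among them GAPDH, PGK1, PGAM1, ENO1, TPI1, LDHA and LDHB, have near-identical pseudogene copies that could share reads with them, which was not tested.

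Among transcripts of the enzymes that trap glucose as glucose 6-phosphate, HK1 was the most abundant in every group. HK1 was also the member of this step that changed most with FB23-2. HK1, the hexokinase of brain and red cells (chromosome 10, 69269984 to 69401884, GRCh38), stood at 844, 869.8 and 839 CPM in the DMSO libraries, 662, 672 and 685 CPM with FB23 and 341, 326 and 308 CPM with FB23-2. The 3 groups did not overlap, with DMSO highest and FB23-2 lowest. HK1 fell by 0.34 ± 0.04 (log2, SE) with FB23 (edgeR, adjusted p = 4.64e-05), by 1.39 ± 0.04 with FB23-2 (7.49e-15), and by 1.05 ± 0.04 from FB23 to FB23-2 (3.68e-13). Genes of red cells, which also use HK1, were lower in the same FB23-2 libraries and none was called lower with FB23, and their part in the HK1 change was not tested.

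HK2, the inducible hexokinase that binds mitochondria, was measured at 187 to 194 CPM in DMSO, 142 to 143 CPM with FB23 and 132 to 148 CPM with FB23-2. It fell to a like level with both compounds, by 0.42 ± 0.05 with FB23 (adjusted p = 1.03e-05) and by 0.43 ± 0.05 with FB23-2 (1.08e-07). The direct difference, FB23-2 minus FB23, was -0.02 ± 0.05 (95% interval -0.12 to 0.08, adjusted p = 0.729), but on 4 other scales it was positive and called, from 0.11 with library totals (edgeR adjusted p = 0.0363) to 0.22 in TPM (limma, 0.0015). With GC and length trends removed it was called in the other direction, at -0.21 (edgeR adjusted p = 7.19e-05). ADPGK, which phosphorylates glucose with ADP, was at 73.0 to 74.8 CPM in DMSO, 75.6 to 79.5 CPM with FB23 and 60.2 to 68.2 CPM with FB23-2. Its fall of 0.22 ± 0.05 with FB23-2 (adjusted p = 0.00105) was lost with upper-quartile factors (-0.05, adjusted p = 0.441) and absent in TPM (0.03, limma, adjusted p = 0.684). HK3, a hexokinase of white blood cells, had 3 counts over the 9 libraries and was not tested.

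As shares of the summed TPM of this step, HK1 held 80.5% ± 0.524 (SD, n = 3) in DMSO, 78.2% ± 0.579 under FB23 and 66.1% ± 1.42 under FB23-2. ADPGK took 10.6%, 13.6% and 19.7%, and HK2 8.88%, 8.17% and 14.2%. HK1 thus lost part of its share to both others with FB23-2, although neither of them rose in CPM. The sum itself went from 422 ± 9.47 TPM in DMSO to 347 ± 5.59 TPM with FB23 and 233 ± 3.44 TPM with FB23-2.

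**Figure D2:**
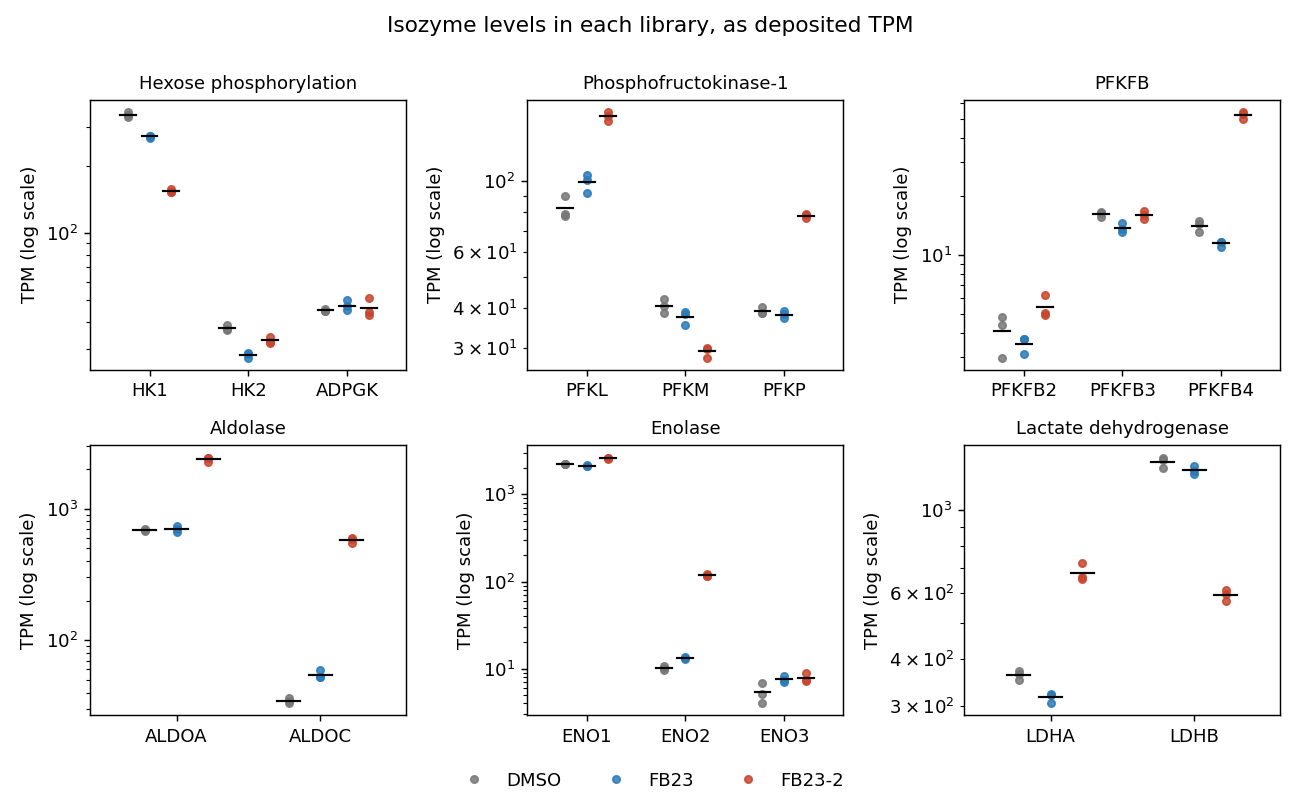
Level of each tested isozyme in each of the 9 libraries (vertical axis, TPM as deposited, log scale), with 1 panel for each of 6 steps, points for libraries coloured by group and black lines for group means. ALDOC, ENO2 and PFKFB4 sit far above their DMSO points with FB23-2, HK1 and LDHB sit below theirs, and LDHA passes LDHB.

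GPI, which interconverts glucose and fructose 6-phosphate, was among the steadiest members at 386 to 406 CPM in DMSO, 363 to 380.3 CPM with FB23 and 384 to 415 CPM with FB23-2. Its change was -0.10 ± 0.04 with FB23 (adjusted p = 0.119) and 0.03 ± 0.04 with FB23-2 (0.556), neither of which passed, although the second was called higher with upper-quartile factors (0.20, edgeR adjusted p = 0.000288) and lower with GC and length trends removed (-0.20, 4.53e-06). Between the compounds it was higher with FB23-2 by 0.13 ± 0.04 (adjusted p = 0.0135), a call that was lost without FB23-2 replicate 2 (0.11, edgeR adjusted p = 0.0574) and turned to -0.08 when GC and length trends were removed.

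Phosphofructokinase-1, the committed step, is built from the liver (PFKL), muscle (PFKM) and platelet (PFKP) subunits, and these moved in different directions with FB23-2. PFKL stood at 181, 180.2 and 204 CPM in DMSO, 204, 227 and 245 CPM with FB23 and 318, 322 and 285 CPM with FB23-2. PFKL rose by 0.71 ± 0.07 with FB23-2 (adjusted p = 1.89e-08) and by 0.26 ± 0.07 with FB23 (0.0088). The smaller rise did not pass when DMSO replicate 1 (0.24, edgeR adjusted p = 0.0533) or DMSO replicate 2 (0.23, 0.0529) was left out. PFKP was at 63.3, 61.7 and 64.5 CPM in DMSO, 59.6, 58.7 and 64.3 CPM with FB23 and 107, 108 and 102 CPM with FB23-2. With FB23 it overlapped DMSO (-0.05 ± 0.05, adjusted p = 0.539), whereas with FB23-2 it rose by 0.74 ± 0.05 (2.96e-10). PFKM, in contrast, was at 103, 96.0 and 91.4 CPM in DMSO, 89.7, 89.3 and 86.4 CPM with FB23 and 57.8, 61.1 and 57.1 CPM with FB23-2. PFKM fell by 0.72 ± 0.05 with FB23-2 (adjusted p = 7.96e-10). Its difference of -0.13 ± 0.05 with FB23 did not pass (0.0741), but did without DMSO replicate 3 (-0.17, edgeR adjusted p = 0.0466). The PFKM share of the 3 subunits went from 25.1% ± 1.99 in DMSO to 10.99% ± 0.365 with FB23-2, while PFKL went from 50.6% to 59.8% and PFKP from 24.2% to 29.2%.

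The PFKFB enzymes make and break fructose 2,6-bisphosphate, the strongest activator of phosphofructokinase-1, and among them PFKFB4 differed most between the compounds. PFKFB4 (chromosome 3, 48517684 to 48562015) stood at 31.4, 33.8 and 34.9 CPM in DMSO, 25.2, 27.1 and 28.2 CPM with FB23 and 108, 109 and 95.2 CPM with FB23-2. All FB23 libraries were below all DMSO libraries, and all FB23-2 libraries were above them. It fell by 0.30 ± 0.07 with FB23 (edgeR, adjusted p = 0.00534) and rose by 1.64 ± 0.07 with FB23-2 (1.34e-13), 3.12-fold. The direct difference between the compounds was 1.94 ± 0.06 (adjusted p = 1.50e-14).

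PFKFB3, the family member with the highest kinase activity, was at 46.6 to 48.1 CPM in DMSO, 38.3 to 41.7 CPM with FB23 and 35.7 to 42.5 CPM with FB23-2. It fell by 0.25 ± 0.07 with FB23 (adjusted p = 0.00996) and by 0.26 ± 0.07 with FB23-2 (0.00157). The difference between the compounds, -0.01 ± 0.07 (95% interval -0.14 to 0.13), was called higher with upper-quartile factors (0.16, edgeR adjusted p = 0.0287) and in TPM (0.21, limma, 0.00968) and lower with GC and length trends removed (-0.12, edgeR adjusted p = 0.0481). The fall with FB23-2 was lost with upper-quartile factors (-0.09, adjusted p = 0.217) and in TPM (-0.02, limma, 0.812). PFKFB2, known from heart, ranged from 7.03 to 11.4 CPM in DMSO, 7.53 to 8.62 CPM with FB23 and 10.04 to 11.97 CPM with FB23-2. Neither comparison with DMSO passed (-0.25 ± 0.14, adjusted p = 0.225, and 0.15 ± 0.14, 0.339), although the first did without DMSO replicate 3 (-0.44, edgeR adjusted p = 0.0208). The second was called higher with upper-quartile factors (0.32, edgeR adjusted p = 0.0475) and in TPM (0.35 and 0.43, limma, 0.0337 and 0.0379). FB23-2 stood above FB23 by 0.40 ± 0.14 (adjusted p = 0.0135), and by 0.33 with the call lost without FB23-2 replicate 3 (edgeR adjusted p = 0.0582). PFKFB1, the liver gene, had 19 counts in all and was not tested. In shares of the family, PFKFB4 went from 40.9% ± 2.03 in DMSO and 39.7% ± 1.73 with FB23 to 70.7% ± 1.004 with FB23-2, and PFKFB3 from 47.2% and 47.7% to 21.8%.

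Both aldolase genes rose with FB23-2, and ALDOC, the brain isozyme, rose further. ALDOA, the muscle and red cell isozyme, was at 1057, 1018 and 1050.4 CPM in DMSO, 979, 1043 and 1144 CPM with FB23 and 3216, 3160.2 and 2794 CPM with FB23-2. ALDOA rose by 1.55 ± 0.06 with FB23-2 (adjusted p = 8.26e-14) and overlapped DMSO with FB23 (0.02 ± 0.06, 0.849). ALDOC (chromosome 17, 28573115 to 28577264) stood at 33.7, 31.9 and 34.9 CPM in DMSO, 48.3, 50.01 and 58.9 CPM with FB23 and 500.4, 485 and 428 CPM with FB23-2. The groups did not overlap and kept the order DMSO, FB23, FB23-2. ALDOC rose by 0.66 ± 0.08 with FB23 (adjusted p = 2.50e-05) and by 3.82 ± 0.08 with FB23-2 (2.99e-17), 14.1-fold. Its share of aldolase TPM went from 4.83% ± 0.134 to 7.27% ± 0.231 and 19.6% ± 0.140, so ALDOA remained the larger part at 80.4% with FB23-2. The summed level of the pair was 719 ± 13.3 TPM in DMSO, 755 ± 39.0 TPM under FB23 and 2961 ± 119 TPM under FB23-2.

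The promoter window of ALDOC is printed because ALDOC had the largest rise among members with more than a few counts. The window covers 250 bases before and 50 after the RefSeq start (GRCh38.p14, chr17:28576846-28577145, minus strand) and is written 5′ to 3′ in the direction of transcription. Capitals mark ACGTG and GCGTG, the core letters of hypoxia response elements, on either strand (CACGT and CACGC are the same letters on the other strand), and CACGTG, the canonical E-box, which counts as ACGTG on each strand.
ALDOC: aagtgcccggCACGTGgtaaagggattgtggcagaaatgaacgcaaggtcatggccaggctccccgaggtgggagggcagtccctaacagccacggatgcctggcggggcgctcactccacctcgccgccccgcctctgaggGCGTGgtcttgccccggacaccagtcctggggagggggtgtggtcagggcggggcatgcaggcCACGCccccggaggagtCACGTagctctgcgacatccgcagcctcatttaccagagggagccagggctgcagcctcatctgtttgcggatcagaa
It holds 3 matches to ACGTG, 2 to GCGTG and 1 to CACGTG. Over all 35116 RefSeq windows of this length, 21.4% held ACGTG, 36.5% GCGTG and 7.26% CACGTG. A match is a description of letters and not a measured binding site.

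Of the steps from triose phosphate to 3-phosphoglycerate, which have 1 gene each here, PGK1 changed most with FB23-2 and GAPDH with FB23. TPI1, which interconverts the triose phosphates, was at 717 to 758 CPM in DMSO, 686 to 725 CPM with FB23 and 756 to 834 CPM with FB23-2. Its rise of 0.12 ± 0.05 with FB23-2 (adjusted p = 0.0237) came from groups that overlapped, and it stood at 0.29 with upper-quartile factors (edgeR adjusted p = 1.06e-05). It did not pass without DMSO replicate 1 (0.12, edgeR adjusted p = 0.0597), DMSO replicate 3 (0.09, 0.141), FB23-2 replicate 1 (0.12, 0.0548) or FB23-2 replicate 2 (0.10, 0.106). GAPDH, the NADH-forming step and a common reference gene, stood at 3389, 3295 and 3314 CPM in DMSO, 2642, 2858 and 3053 CPM with FB23 and 3504, 3439 and 3001 CPM with FB23-2. GAPDH fell by 0.22 ± 0.06 with FB23 (adjusted p = 0.0102), and all 3 FB23 libraries lay below DMSO. With FB23-2 its groups overlapped at -0.01 ± 0.06 (0.904), and the sign followed the scale, with 0.16 under upper-quartile factors (edgeR adjusted p = 0.012) and 0.23 in TPM (limma, 0.000621).

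PGK1, the first ATP-forming enzyme of the pathway, was at 684, 668 and 654 CPM in DMSO, 623, 621 and 627 CPM with FB23 and 1174, 1146 and 1126 CPM with FB23-2. The FB23-2 libraries lay well above the rest, and the FB23 libraries just below DMSO. PGK1 rose by 0.78 ± 0.04 with FB23-2 (adjusted p = 3.57e-12), whereas -0.10 ± 0.04 with FB23 did not pass in edgeR (0.075) and passed in DESeq2 (-0.11, adjusted p = 0.0293) and limma-voom (-0.10, 0.0465).

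**Figure D3:**
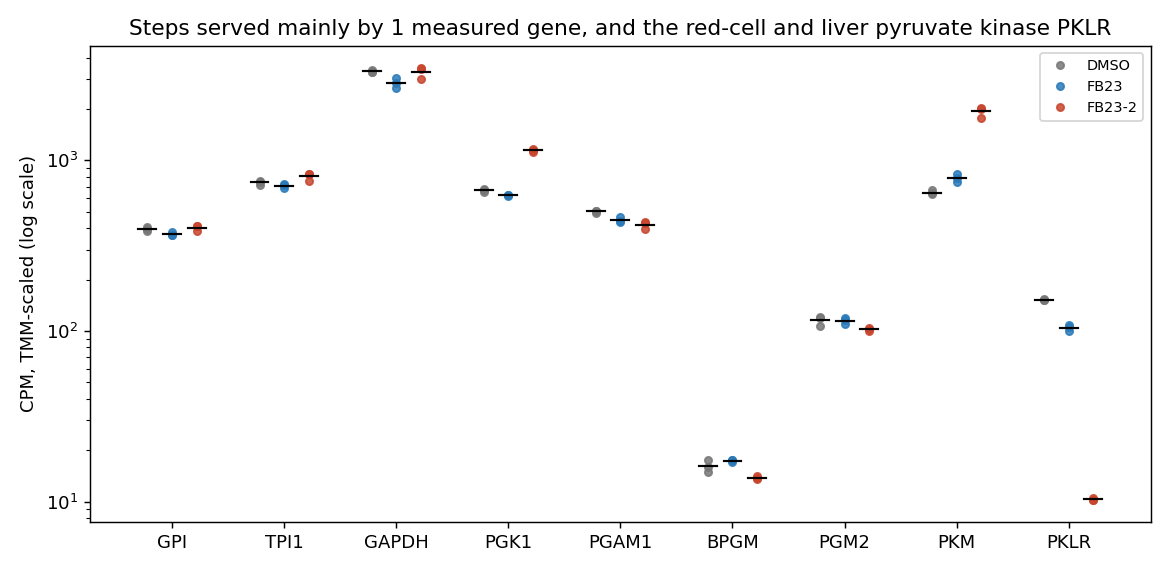
Level of GPI, TPI1, GAPDH, PGK1, PGAM1, BPGM, PGM2, PKM and PKLR in each of the 9 libraries (vertical axis, CPM after TMM scaling, log scale), with points for libraries coloured by group and black lines for group means. PKM and PGK1 are higher in all 3 FB23-2 libraries than in any other library, PKLR is lower, and GPI and GAPDH of FB23-2 overlap DMSO.

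PGAM1, the general phosphoglycerate mutase, was at 494 to 507 CPM in DMSO, 434 to 463 CPM with FB23 and 396 to 436 CPM with FB23-2. It fell by 0.17 ± 0.05 with FB23 (adjusted p = 0.0122) and by 0.26 ± 0.05 with FB23-2 (5.18e-05). The fall with FB23 did not pass when DMSO replicate 1 was left out (-0.17, edgeR adjusted p = 0.0501), nor without DMSO replicate 2 (-0.16, 0.0547) or FB23 replicate 2 (-0.16, 0.0617), and that with FB23-2 was lost in TPM (-0.01, limma, 0.749). PGAM2, the muscle isozyme, had 0, 1 and 4 expected counts in the DMSO libraries, 0, 7 and 8 with FB23 and 63, 45 and 19 with FB23-2. PGAM2 rose by 4.27 ± 0.60 with FB23-2 (adjusted p = 3.52e-06), a size that depends on the prior count because the DMSO counts are so few. It passed the count filter only through the FB23-2 libraries, so this p is no independent support for a rise. PGAM2 still made up 1.41% ± 0.454 of the mutase TPM with FB23-2, after 0.0637% in DMSO.

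BPGM, which makes the 2,3-bisphosphoglycerate that lowers the oxygen affinity of haemoglobin in red cells, was at 17.6, 14.8 and 15.9 CPM in DMSO, 17.5, 17.6 and 17.0 CPM with FB23 and 13.6, 14.1 and 13.7 CPM with FB23-2. Its fall of 0.22 ± 0.08 with FB23-2 (adjusted p = 0.0199) was small beside that of the red cell genes, whose median change was -2.46. The call did not hold when either DMSO replicate 1 (-0.16, edgeR adjusted p = 0.0989) or else FB23-2 replicate 1 (-0.19, 0.0813) was left out, and BPGM stood at 0.03 in TPM (limma, 0.737).

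Among the enolases, ENO1, the general isozyme, did not pass against DMSO while ENO2, the neuronal isozyme, rose from a low level. ENO1 stood at 3021 to 3102 CPM in DMSO, 2763 to 3029 CPM with FB23 and 2841 to 3140.3 CPM with FB23-2. Its changes were -0.08 ± 0.05 with FB23 (adjusted p = 0.222) and -0.02 ± 0.05 with FB23-2 (0.717). The second turned to 0.15 under upper-quartile factors (edgeR adjusted p = 0.00387) and 0.23 in TPM (limma, 6.41e-05), and was called lower at -0.13 with GC and length trends removed (edgeR adjusted p = 0.000415), as was the first (-0.11, 0.00537). Between the compounds the difference of 0.06 ± 0.05 (0.213) passed without FB23-2 replicate 3 (0.10, edgeR adjusted p = 0.0306) and on 4 other scales, from 0.19 with library totals (0.000235) to 0.29 in TPM (limma, 8e-06). ENO2 (chromosome 12, 6913745 to 6923698) was at 16.8, 14.9 and 15.8 CPM in DMSO, 19.4, 20.9 and 20.8 CPM with FB23 and 156, 159 and 144 CPM with FB23-2. All FB23 libraries lay above DMSO and all FB23-2 libraries far above both. ENO2 rose by 0.38 ± 0.07 with FB23 (adjusted p = 0.00125) and by 3.28 ± 0.06 with FB23-2 (1.84e-17), 9.70-fold. TPI1, at 6867119 to 6870948 on the same chromosome and strand, lies close to ENO2 and rose by only 0.12.

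ENO3, the muscle enolase, was low, at 5.12, 3.82 and 2.96 CPM in DMSO, 4.998, 6.07 and 5.69 CPM with FB23 and 4.71, 4.56 and 5.41 CPM with FB23-2. Its rise of 0.51 ± 0.17 with FB23 (adjusted p = 0.039) came from groups that overlapped. The call did not pass without DMSO replicate 2 (0.49, edgeR adjusted p = 0.114), DMSO replicate 3 (0.35, 0.174), FB23 replicate 2 (0.46, 0.123) or FB23 replicate 3 (0.52, 0.0601). With FB23-2 the change of 0.30 ± 0.18 did not pass (0.134), but did without DMSO replicate 1 (0.51, edgeR adjusted p = 0.0168) and under 5 other settings, from 0.38 with GC and length trends removed (0.0484) to 0.57 in TPM (limma, 0.00774). ENO1 held 99.3% of enolase TPM in DMSO and 95.4% with FB23-2, and ENO2 went from 0.454% ± 0.0238 and 0.618% ± 0.0164 to 4.28% ± 0.0872. Thus the rise of ENO2 left ENO1 the dominant transcript, at an ENO1 to ENO2 ratio of 219 in DMSO, 160.4 with FB23 and 22.3 with FB23-2.

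The ENO2 promoter window (GRCh38.p14, chr12:6914330-6914629, plus strand) is shown in the same way, since ENO2 rose most among the isozymes whose partner ENO1 did not pass.
ENO2: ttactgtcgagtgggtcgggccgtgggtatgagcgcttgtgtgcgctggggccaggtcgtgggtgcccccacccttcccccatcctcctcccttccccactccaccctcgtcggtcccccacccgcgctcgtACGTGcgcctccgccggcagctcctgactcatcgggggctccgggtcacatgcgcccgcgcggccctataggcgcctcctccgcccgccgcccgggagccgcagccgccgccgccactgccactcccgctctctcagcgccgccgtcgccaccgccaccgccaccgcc
It holds 1 match to ACGTG and none to GCGTG or CACGTG, so ALDOC and ENO2, the pair with the largest well-counted rises, differ in how many of these letters their windows hold.

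At the last step of glycolysis, PKM rose and PKLR fell with both compounds. PKM, the pyruvate kinase of muscle and dividing cells (chromosome 15, 72199029 to 72231822), stood at 669.9, 632 and 640.1 CPM in DMSO, 749, 792 and 837 CPM with FB23 and 2015, 2017 and 1776 CPM with FB23-2. The 3 groups did not overlap, and the FB23 libraries lay between the others. PKM rose by 0.29 ± 0.05 with FB23 (adjusted p = 0.000991) and by 1.58 ± 0.06 with FB23-2 (2.23e-14), 2.99-fold. The deposited tables list 1 transcript for each gene, so the M1 and M2 forms of PKM could not be told apart.

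PKLR, which encodes the pyruvate kinase of liver and red cells and is not on the list of 33, was at 153, 154 and 151 CPM in DMSO, 100.5, 108 and 105 CPM with FB23 and 10.501, 10.2 and 10.3 CPM with FB23-2. PKLR fell by 0.54 ± 0.04 with FB23 (adjusted p = 4.02e-07) and by 3.88 ± 0.06 with FB23-2 (8.56e-19), 14.8-fold. In TPM, PKM stood at 4.19 ± 0.149 times PKLR in DMSO, 7.50 ± 0.321 times with FB23 and 185 ± 12.8 times with FB23-2. Red cell genes, to whose lineage the R form of PKLR belongs, fell in the same FB23-2 libraries whereas with FB23 3 of 10 were called higher and none lower. Their part in the PKLR change was not tested.

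Lactate dehydrogenase showed the largest shift in isozyme share among the 33 genes. LDHA, the muscle subunit favoured by lactate-making cells (chromosome 11, 18394388 to 18408425), stood at 472, 453 and 435 CPM in DMSO, 388, 394 and 390.3 CPM with FB23 and 720.3, 698 and 730.2 CPM with FB23-2. Again FB23 lay below DMSO and FB23-2 above it in every library. LDHA fell by 0.21 ± 0.04 with FB23 (adjusted p = 0.00161) and rose by 0.66 ± 0.04 with FB23-2 (9.35e-11), a difference between the compounds of 0.87 ± 0.04 (2.19e-12). LDHB, the heart subunit (chromosome 12, 21635342 to 21757857), was at 979, 976 and 915 CPM in DMSO, 862, 913 and 908 CPM with FB23 and 369, 348 and 352 CPM with FB23-2. It fell by 1.42 ± 0.05 with FB23-2 (adjusted p = 6.24e-15), while -0.10 ± 0.04 with FB23 did not pass (0.129). In TPM, LDHA was 21.2% ± 0.304 of lactate dehydrogenase in DMSO, 19.8% ± 0.294 with FB23 and 53.3% ± 0.801 with FB23-2. LDHB was thus the larger part in every DMSO and FB23 library and the smaller part in every FB23-2 library, and the LDHA to LDHB ratio was 0.269 ± 0.00489, 0.247 ± 0.00459 and 1.14 ± 0.0369. The summed level was lower at the same time, at 1708 ± 51.1 TPM in DMSO and 1273 ± 53.8 TPM with FB23-2, in spite of the upward shift of TPM. LDHC, the testis gene that begins at 18412307 beside LDHA, was without a single count in all 9 libraries (0 counts, for which levels up to 0.0156 CPM remain possible).

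**Figure D4:**
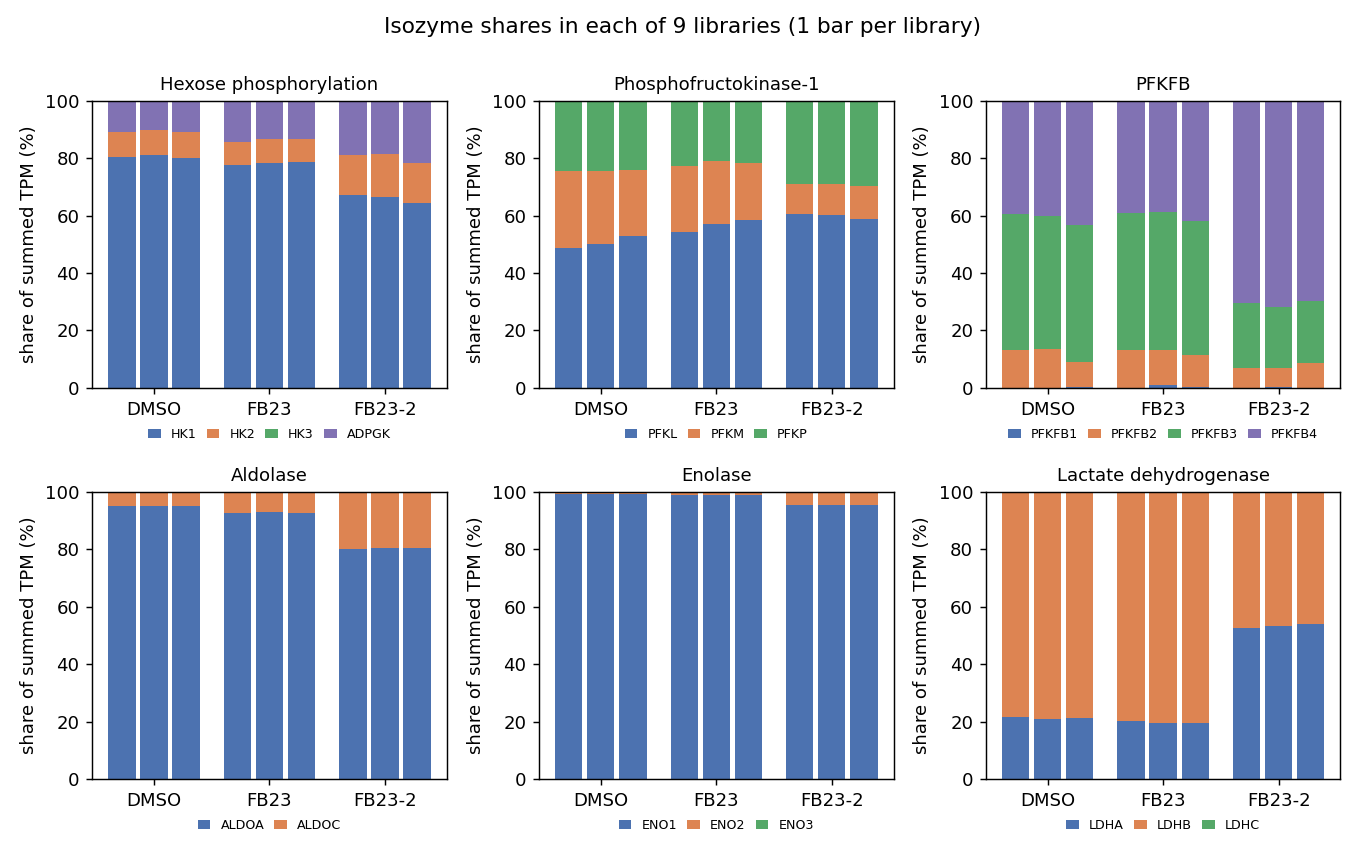
Share of each isozyme in the summed TPM of its step (vertical axis, percent), with 1 stacked bar per library, 3 libraries per group and 1 panel per step. The LDHA share rises from 21.2% in DMSO to 53.3% with FB23-2, PFKFB4 takes 70.7% of its family, and the FB23 bars stay close to DMSO.

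Each share was compared over libraries with an exact permutation test, two-sided, in which 3 libraries against 3 cannot go below p = 0.10. Of 18 shares per comparison, 12 did not overlap between FB23 and DMSO, 16 between FB23-2 and DMSO and 18 between the compounds, each at the smallest p (0.117 after adjustment over 54). No share could therefore pass 0.05, whatever its size. The shares of a step add up to the whole, so a gain of 1 isozyme is counted again as a loss of another. In the same comparisons, 37.9%, 84.2% and 81.2% of all tested genes did not overlap in CPM, which is another measure. A share is a ratio within 1 library and does not move with the scaling. The largest differences from DMSO with FB23-2 were 32.2 percentage points for LDHA, 29.8 for PFKFB4, -25.4 for PFKFB3, 14.7 for ALDOC, -14.4 for HK1 and -14.2 for PFKM. With FB23 the largest was 5.99 points, for PFKL.

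Phosphoglucomutases link glycogen to glucose 6-phosphate. PGM2, which also acts on ribose 1-phosphate, was at 107 to 120.0 CPM in DMSO, 109 to 119 CPM with FB23 and 99.6 to 104 CPM with FB23-2. Its fall of 0.17 ± 0.05 with FB23-2 (adjusted p = 0.00547) was lost with library totals (-0.03, edgeR adjusted p = 0.663) and stood at 0.08 in TPM (limma, 0.258). PGM2 was also lower with FB23-2 than with FB23, by 0.16 ± 0.05 (0.00746), and not without FB23 replicate 2 (-0.13, edgeR adjusted p = 0.0565). PGM1, the main isozyme of most tissues, had 5 counts in all and was not tested, so PGM2 made up 99.9% to 100% of the pair on average in every group.

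The pyruvate dehydrogenase complex turns pyruvate into acetyl-CoA, and all 4 of its genes on the list were lower with FB23-2, by unequal amounts. PDHA1, the catalytic E1 alpha subunit that the kinases phosphorylate (chromosome X, 19343893 to 19361705), stood at 116, 119 and 111 CPM in DMSO, 101, 105 and 107 CPM with FB23 and 37.2, 34.9 and 35.5 CPM with FB23-2. DLAT, the E2 acetyltransferase that forms the core (chromosome 11, 112024814 to 112064390), stood at 393, 391 and 378 CPM in DMSO, 337, 319 and 309 CPM with FB23 and 107, 104 and 106 CPM with FB23-2. For both genes the 3 groups did not overlap and kept the order DMSO, FB23, FB23-2. PDHA1 fell by 1.68 ± 0.05 with FB23-2 (adjusted p = 3.44e-15), 3.21-fold, and DLAT by 1.87 ± 0.04 (1.85e-16), 3.65-fold. With FB23, DLAT fell by 0.27 ± 0.04 (adjusted p = 0.00029). The fall of PDHA1 with FB23, 0.14 ± 0.05 (0.0346), did not pass without DMSO replicate 1 (-0.14, edgeR adjusted p = 0.108), DMSO replicate 2 (-0.12, 0.149), FB23 replicate 1 (-0.12, 0.0893) or FB23 replicate 2 (-0.14, 0.10). Nor did it pass with library totals (-0.12, edgeR adjusted p = 0.0705), without a count filter (-0.11, 0.19) or with a replicate block (-0.14, 0.0746). In TPM it stood at -0.13 and did not pass (limma, adjusted p = 0.0828).

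DLD, the E3 dehydrogenase shared with other mitochondrial complexes, was at 182 to 194 CPM in DMSO, 191 to 196 CPM with FB23 and 87.2 to 96.7 CPM with FB23-2. It fell by 1.04 ± 0.05 with FB23-2 (adjusted p = 9.81e-13) and stood at 0.03 ± 0.05 with FB23 (0.642). PDHB, the E1 beta subunit, behaved differently: 86.1, 83.2 and 81.5 CPM in DMSO, 102, 101 and 97.2 CPM with FB23 and 69.9, 67.6 and 65.6 CPM with FB23-2. PDHB rose by 0.26 ± 0.05 with FB23 (adjusted p = 0.000892) and fell by 0.30 ± 0.05 with FB23-2 (1.55e-05). The fall was lost in TPM (-0.06, limma, 0.233) and with GC and length trends removed (0.04, edgeR adjusted p = 0.337), while the direct difference of -0.56 ± 0.05 (4.81e-09) was called under all 21 alternative fits. As the E1 enzyme needs both subunits, their levels per length are set side by side: PDHA1 at 50.9 ± 1.63 and PDHB at 96.1 ± 1.43 TPM in DMSO, and 18.8 ± 0.709 and 92.2 ± 1.13 TPM with FB23-2. The 4 genes summed to 353 ± 6.30, 351 ± 16.5 and 198 ± 5.78 TPM in DMSO, FB23 and FB23-2.

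Promoter windows of the pair with the largest falls are printed for comparison with those of ALDOC and ENO2 (GRCh38.p14, DLAT at chr11:112025158-112025457 and PDHA1 at chrX:19343677-19343976, both plus strand, with capitals as before).
DLAT: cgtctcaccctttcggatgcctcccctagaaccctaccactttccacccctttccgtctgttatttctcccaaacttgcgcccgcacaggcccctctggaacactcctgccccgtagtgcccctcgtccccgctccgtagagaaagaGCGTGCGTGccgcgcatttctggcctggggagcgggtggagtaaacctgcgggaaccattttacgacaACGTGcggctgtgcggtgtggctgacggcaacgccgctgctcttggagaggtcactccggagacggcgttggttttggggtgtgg
PDHA1: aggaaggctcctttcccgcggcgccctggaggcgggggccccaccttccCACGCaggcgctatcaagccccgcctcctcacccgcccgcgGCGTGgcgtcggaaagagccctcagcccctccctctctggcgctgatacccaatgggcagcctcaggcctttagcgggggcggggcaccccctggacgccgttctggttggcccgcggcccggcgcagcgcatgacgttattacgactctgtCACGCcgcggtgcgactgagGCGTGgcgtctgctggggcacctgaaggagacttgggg
DLAT holds 1 match to ACGTG and 2 to GCGTG, and PDHA1 holds 4 to GCGTG. The same letters thus occur in windows of genes that rose and of genes that fell. Of the 33 genes, 32 had a RefSeq window (PFKFB2 did not match), with 58 windows in all. Members higher with FB23-2 had ACGTG in 9 of 18 windows, GCGTG in 10 and CACGTG in 3. Members lower with FB23-2 had them in 9, 12 and 4 of 28 windows. For ACGTG the share among lower members, 32.1%, was smaller than among higher ones, and both exceeded the 21.4% of all RefSeq windows. GCGTG was in 55.6% (higher) and 42.9% (lower), beside 36.5%, and CACGTG in 16.7% and 14.3%, beside 7.26%. Counted by gene, 7 of 11 higher and 7 of 13 lower members had at least 1 window with ACGTG. For GCGTG the counts were 9 of 11 higher and 10 of 13 lower members. For CACGTG they were 3 of 11 and 4 of 13, so its order by gene was the reverse of that by window. A gene with several windows weighs more in the window shares. None of these differences was tested, and windows of the same gene can overlap. The windows of PFKFB4 and LDHB on the list each hold 1 GCGTG and no ACGTG.

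Regulators around pyruvate moved with FB23-2 as well, on a list of 46 other pathway genes of which 29 were tested. PDK4, a pyruvate dehydrogenase kinase known from fasting muscle, stood at 1.95, 3.03 and 2.71 CPM in DMSO, 4.51, 2.68 and 3.29 CPM with FB23 and 23.3, 21.8 and 22.2 CPM with FB23-2. PDK1, a kinase known from hypoxia, stood at 3.35, 3.25 and 3.76 CPM in DMSO, 2.29, 2.87 and 2.70 CPM with FB23 and 15.1, 14.8 and 14.9 CPM with FB23-2. In both, every FB23-2 library lay several times above DMSO. With FB23-2, PDK4 rose by 3.12 ± 0.15 (adjusted p = 2.07e-12), PDK1 by 2.11 ± 0.12 (1.35e-11) and PDK3 by 1.25 ± 0.11 (5.21e-09), and PDK2 fell by 0.37 ± 0.11 (0.00538). None of the 4 kinases passed with FB23, where changes lay between -0.36 and 0.35. PDP1, a phosphatase that switches the complex on again, rose by 0.87 ± 0.15 with FB23-2 (5.37e-05), from 3.70 to 5.80 CPM in DMSO to 7.87 to 8.93 CPM. PDP2, the other phosphatase, which had more counts, stood at 38.6 to 45.3 CPM in DMSO and 31.2 to 37.8 CPM with FB23-2 and fell by 0.30 ± 0.08 (adjusted p = 0.00225, named after its values were seen). Per length, PDK1 stood at 12.3 and PDK4 at 10.6 TPM with FB23-2, beside 18.8 TPM for PDHA1.

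The mitochondrial pyruvate carrier is formed of MPC1 and MPC2, which moved apart. MPC1 fell by 0.55 ± 0.09 with FB23-2 (adjusted p = 3.20e-05) and MPC2 rose by 1.26 ± 0.06 (2.61e-12), and by 0.27 ± 0.06 with FB23 (0.0069). Per length, MPC1 stood at 41.5 ± 5.79 and MPC2 at 19.1 ± 0.845 TPM in DMSO, and at 33.5 ± 1.82 and 54.8 ± 4.04 TPM with FB23-2, so that their order was exchanged.

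**Figure D5:**
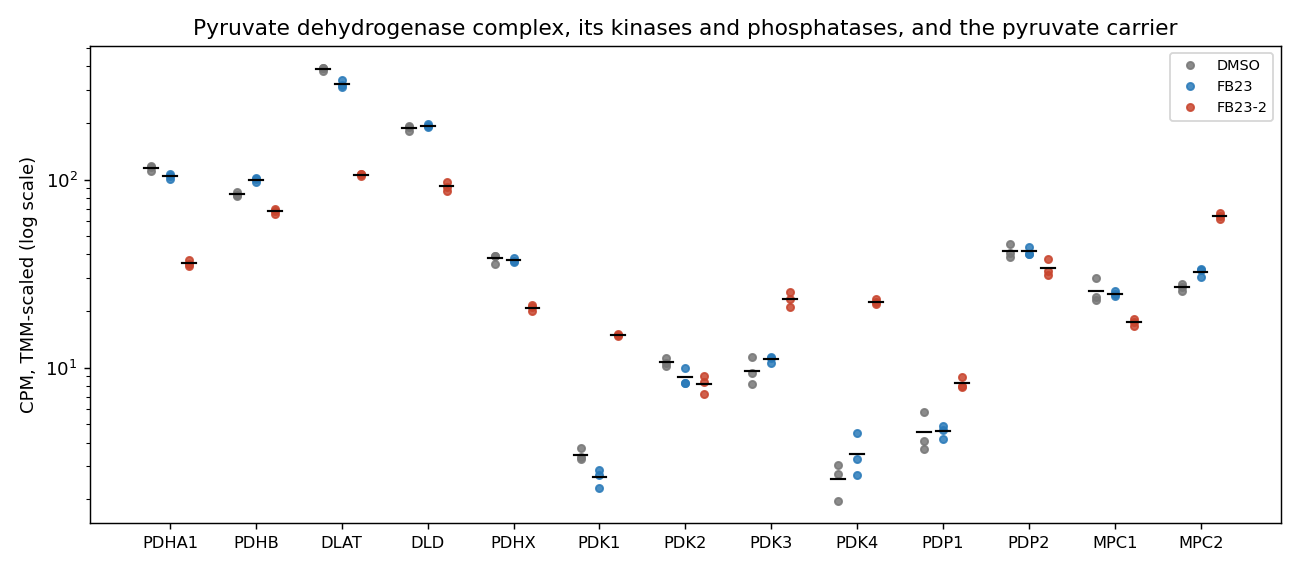
Level of the pyruvate dehydrogenase genes with PDHX, their kinases (PDK1 to PDK4) and phosphatases (PDP1 and PDP2), and the carrier genes MPC1 and MPC2 in each of the 9 libraries (vertical axis, CPM after TMM scaling, log scale), with points coloured by group and black lines for group means. PDHA1, DLAT and DLD lie lower and PDK1, PDK3 and PDK4 higher in all 3 FB23-2 libraries than in any DMSO library.

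Over the whole list of other pathway genes, 6 were higher and 2 lower with FB23, 13 higher and 15 lower with FB23-2 than with DMSO, and 12 higher and 15 lower with FB23-2 than with FB23. The shares called were 27.6%, 96.6% and 93.1%, beside 23.5%, 82.6% and 81.5% of all tested genes. The highest and lowest called with FB23 were LDHD, a mitochondrial D-lactate dehydrogenase (1.73 ± 0.32), PC, the pyruvate carboxylase (0.40 ± 0.06), PKLR (-0.54 ± 0.04) and GALM, which interconverts the anomers of hexose sugars (-0.33 ± 0.08). LDHD stayed low, at 0.28 to 0.31 TPM in DMSO and 0.88 to 1.11 TPM with FB23. It passed the count filter only through libraries given a compound, so its call is no independent support for a rise. With FB23-2 they were PDK4, PDK1, PKLR and SLC37A4, the glucose 6-phosphate transporter of the endoplasmic reticulum, which fell by 1.34 ± 0.06 (adjusted p = 1.39e-12). Against FB23 the same 4 genes stood at 2.77 ± 0.14, 2.47 ± 0.11, -3.34 ± 0.06 and -1.48 ± 0.06. PDHX, which tethers DLD to the DLAT core, fell by 0.87 ± 0.07 with FB23-2 (9.49e-10), and CS, the citrate synthase that uses acetyl-CoA, by 0.88 ± 0.04 (2.99e-12). PDHX and CS are named here after their values were seen. The glucose transporter genes SLC2A1 and SLC2A3 rose by 1.04 ± 0.05 and 1.96 ± 0.05 with FB23-2, and by 0.20 ± 0.05 and 0.22 ± 0.04 with FB23. Of the lactate transporters, SLC16A1 fell by 0.33 ± 0.04 with FB23-2, and SLC16A3, at 1.07 to 1.36 CPM in DMSO, fell by 1.16 ± 0.29 with FB23 and rose by 2.40 ± 0.21 with FB23-2.

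Summed over all 33 genes, the pathway held 11898 ± 65.2 TPM in DMSO, 11094 ± 189 TPM under FB23 and 16249 ± 384 TPM under FB23-2. GAPDH and ENO1 alone gave 3947 ± 17.5 and 2234 ± 10.2 TPM of it in DMSO, so the sum says little of the less abundant steps. By step, the summed TPM with FB23-2 was above DMSO in all 3 libraries for phosphofructokinase-1 (267 against 162), the PFKFB family (73.8 against 34.5), aldolase, PGK1 (882 against 432) and PKM (1126 against 317). The same held for GPI (163 against 135), TPI1 (1167 against 906), GAPDH (4646 against 3947) and enolase (2743 against 2250.0), but GPI, GAPDH and ENO1 did not pass in CPM, and TPM carries the upward shift with FB23-2 given above. It was below DMSO for hexose phosphorylation, lactate dehydrogenase and pyruvate dehydrogenase. With FB23 the largest relative difference from DMSO among the steps was that of PKM (392 against 317).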

How the data were processed

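RNA-seq of 9 libraries (3 per group) was analysed from the gene tables the authors deposited. Per the submitters' processing notes RSEM 1.2.31 and GRCh38 are named, and no other setting is given in the sources used here. Per the file headers, each table gives the expected count, TPM and FPKM of 26830 genes, with 1 transcript listed per gene. The deposited expected counts are estimates that need not be whole and were rounded to whole counts. Deposited TPM values, scaled to each library's total, were used for levels and shares within a library, and deposited FPKM values only as an alternative for these.

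Genes were filtered with edgeR 4.0.16 in R 4.3.3 (filterByExpr, minimum count 10, minimum total 15), scaled by TMM, and fitted over all 9 libraries with the quasi-likelihood test, two-sided, with Benjamini-Hochberg adjustment over 13365 genes and a threshold of 0.05. The prior count of fold changes was 0.125, and ± beside a log2 fold change is its SE. Totals of 12360291 to 38410750 counts per library limit the precision of genes with few counts, and limits from 0 counts (3 counts) cover counting error only. Alternatives used limma 3.58.1 and DESeq2 1.42.0. On simulated data for FB23 against DMSO (13133 genes or more per draw) the fit recovered 74.2%, 92.3% and 100% of genes changed by 0.5, 1 and 2 on the log2 scale, with 6.32% of its calls false. The simulation changed a far smaller part of the genes, up or down at random, than the 23.5% called with FB23 or 82.6% with FB23-2. Its rates therefore need not hold for these data.

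All 33 members are named. Of the other pathway genes, PDK1 to PDK4, PDP1, MPC1, MPC2 and the 2 highest and 2 lowest called genes in each comparison are named. The members and lists were chosen with earlier results of these data known. Gene positions come from GENCODE release 29 and promoter windows from RefSeq (GRCh38.p14). Replicate numbers in the labels were used as a block only as an alternative. One marker gene of the planned red cell list is not reported here and was left out of its sums and counts.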

Additional observations from a re-analysis of the deposited data

Results flagged for a closer look

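PFKFB4, LDHA and PDHB were each called in opposite directions with the 2 compounds against DMSO, and the direct difference between the compounds was called for each. PFKFB4 was higher with FB23-2 than with FB23 by 1.94 ± 0.06 on the log2 scale (edgeR, adjusted p = 1.50e-14), with FB23 below DMSO and FB23-2 above it in 3 of 3 libraries each. LDHA was higher by 0.87 ± 0.04 (adjusted p = 2.19e-12), with the same order of the groups in every library. PDHB was lower with FB23-2 than with FB23, by 0.56 ± 0.05 (-0.56, adjusted p = 4.81e-09), with FB23 above DMSO and FB23-2 below it in every library. The 2 comparisons with DMSO share their control libraries, and the fall of PDHB with FB23-2 against DMSO depended on the scale.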

How the results depend on the processing

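Counts of called members moved with the scale, the minimum fold and the libraries kept. A minimum of 1 on the log2 scale left 0 higher and 0 lower with FB23 (6 and 9 without it), 6 and 5 with FB23-2 against DMSO (11 and 13), and 6 and 5 with FB23-2 against FB23 (14 and 10). Removing GC and length trends called 14 members lower with FB23. With FB23-2 against DMSO, 8 members were lower under upper-quartile factors and 7 and 7 in TPM (limma, pseudocounts 1 and 0.1). Leaving out each library in turn gave 4 to 6 higher and 7 to 11 lower with FB23, 10 to 11 and 12 to 13 with FB23-2 against DMSO, and 13 to 14 and 9 to 10 against FB23. The cause of these differences was not tested, apart from the shift that each scale puts on all genes with FB23-2 against DMSO (0.17, 0.15 and 0.24 at the median gene for upper-quartile factors, library totals and TPM). Against FB23 the shifts were 0.17, 0.13 and 0.22. Over all genes, 5523 were higher and 5518 lower with FB23-2 against DMSO, 6451 and 4642 under upper-quartile factors, and 6755 and 4261 in TPM with a pseudocount of 1. With FB23, 1647 were higher and 1497 lower, 1881 and 1172 under library totals, and 1921 and 2541 with GC and length trends removed.

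Some members changed sign (log2, FB23-2 against DMSO): ADPGK to 0.030 and 0.0305, BPGM to 0.026 and 0.028 and PGM2 to 0.075 and 0.077 in TPM, and with GC and length trends removed GPI to -0.20, BPGM to 0.077, PDHB to 0.043 and GAPDH to 0.078. GAPDH turned to 0.16 and ENO1 to 0.15 under upper-quartile factors, to 0.14 and 0.13 under library totals, and both to 0.23 in TPM. Against FB23, HK2 turned to 0.15, 0.11, 0.21 and 0.22 under upper-quartile factors, library totals and TPM, PFKFB3 to 0.16, 0.21 and 0.22 under upper-quartile factors and TPM, PGAM1 to 0.14, 0.14 and 0.070 in TPM and with GC and length trends removed, PGM2 to 0.0024, 0.067 and 0.068 under upper-quartile factors and TPM, and GPI to -0.081 with GC and length trends removed. The calls on 11 of 15 members with FB23, 17 of 24 with FB23-2 against DMSO and 19 of 24 against FB23 stood under all 21 alternative fits without a minimum fold.

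A replicate block gave 5 higher and 8 lower with FB23, 11 and 13 with FB23-2 against DMSO and 14 and 10 against FB23. Over all genes the block called 2504 with FB23, against 3144 without it. Correlations of same-numbered libraries' deviations from their group means lay between -0.185 and 0.0856. These deviations also hold counting error, so low correlations cannot exclude a shared culture or batch. The labels do not say what the replicate numbers stand for. Isozyme shares moved by less than 1 SD in 61 of 63 cases both from FPKM and from CPM per mean effective length. That outcome is no test of the shares, because the scale of a library cancels in a ratio within it. Summed levels moved by more than 1 SD in 28 and 30 of 45 cases. PGAM2, with 0 to 4 counts in DMSO, and HK3, PFKFB1, LDHC and PGM1 are limited by depth.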
